A study of Mus musculus with 6 samples.

Results

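The genes described here encode interferon receptor chains, a STAT protein and interferon regulatory factors (IRFs): Ifnar1, Ifnar2, Ifngr1, Ifngr2, Stat2, Irf1, Irf3, Irf7 and Irf9. They were chosen by symbol, and all 9 had a row among the 14831 genes of the count table and enough reads to be tested among 14289. RNA was sequenced from immortalized mouse pancreatic fibroblasts of mixed strain, grown to confluence in 3 separate wells for each group. The 3 libraries of 1 group are labelled WT and the 3 of the other Gli2-/-;Gli3-/- (KO), and the labels name no interferon or Hedgehog agonist for either. According to the study's methods, such lines came from the adult pancreas of mice with floxed Gli alleles, and both kinds received a GFP adenovirus, together with a dsRed lentivirus for control lines or a Cre adenovirus for knock-out lines. Vector and genotype therefore cannot be told apart here. Whether a group is 1 line or several is not given in the sources used here, so p-values measure only the spread between wells.

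Type I interferons bind a receptor made of the IFNAR1 and IFNAR2 chains, and interferon gamma binds one made of IFNGR1 and IFNGR2. Janus kinases on the type I receptor phosphorylate STAT2, which acts with IRF9 in a complex called ISGF3 that binds the interferon-stimulated response element (ISRE), while the gamma receptor acts mainly through the gamma-activated site (GAS). IRF3 and IRF7 are activated downstream of sensors of viral nucleic acid and switch on the interferon genes themselves, and IRF1 is a classic target of interferon gamma. Irf7, Irf9 and Stat2 are known to be interferon-induced themselves, whereas Irf3 is made constitutively in most cells.

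The promoters of the genes were read for these 2 elements in RefSeq windows on GRCm38.p6, each holding 250 bases before a transcription start and 50 from it on. The 9 genes have 11 windows. The ISRE core was searched as GAAA, any 2 bases and GAAA on both strands and the GAS as TTCNNNGAA, which is its own reverse complement. An ISRE core lay in 1 of the 9 genes (Stat2) and in 3.99% of all 27025 genes (3.44% of their 32851 windows). A GAS lay in 3 of the 9 (Irf1, Ifnar1 and Ifnar2) and in 9.55% of all genes (8.3% of windows). The stretches below are shown because Stat2 holds the only ISRE core, Irf1 holds a GAS and did not pass the test in the counts, and Irf7 changed most and holds neither. They are written 5′ to 3′ on the strand of the gene, hold only bases before the start and outside annotated exons, and have the matched letters in capitals.
Stat2, chr10:128270248-128270497, plus strand: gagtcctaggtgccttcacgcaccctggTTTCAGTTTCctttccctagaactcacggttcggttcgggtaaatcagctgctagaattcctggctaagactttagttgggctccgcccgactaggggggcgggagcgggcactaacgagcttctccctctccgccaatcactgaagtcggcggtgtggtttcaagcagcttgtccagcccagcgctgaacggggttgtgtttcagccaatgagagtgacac
Irf1, chr11:53769764-53770013, plus strand: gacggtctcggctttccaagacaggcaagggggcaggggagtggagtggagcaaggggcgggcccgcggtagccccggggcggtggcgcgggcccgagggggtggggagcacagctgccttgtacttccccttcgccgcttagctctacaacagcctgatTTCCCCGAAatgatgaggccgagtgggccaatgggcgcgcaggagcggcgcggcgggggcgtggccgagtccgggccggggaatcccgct
Irf7, chr7:141266482-141266674, minus strand: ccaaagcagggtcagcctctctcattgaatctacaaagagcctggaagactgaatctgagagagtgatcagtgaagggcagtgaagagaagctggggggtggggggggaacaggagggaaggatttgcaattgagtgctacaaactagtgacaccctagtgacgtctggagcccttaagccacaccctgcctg
The Stat2 match reads TTTCAGTTTC and begins at -222 from the RefSeq transcription start, with the core on the opposite strand. That start differs from the GENCODE gene start of 128270559 given further below. The Irf1 match reads TTCCCCGAA and begins at -90. The windows of Irf7, Irf9, Irf3, Ifngr1 and Ifngr2 held neither set of letters, which says nothing of sites elsewhere or of looser spelling.

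Libraries held 31728420 to 33905521 counts in the WT-labelled group and 32781730 to 41035931 in the KO-labelled group. Gli2 had 809, 944 and 868 counts in WT-labelled wells and 1932, 2316 and 1926 in KO-labelled wells, and Gli3 rose from 392, 416 and 398 to 1434, 1637 and 1404. Both targeted genes were therefore higher in the group labelled as lacking them. The study reports that Gli deletion in its fibroblast lines was checked by qPCR and western blot. It also reports that its Gli2/Gli3 KO fibroblasts did not respond to Hedgehog stimulation. Of the genes known to be switched on by Hedgehog signalling through GLI proteins, Ptch1 had 7046, 7912 and 7834 counts in WT-labelled wells and 2732, 3416 and 2851 in KO-labelled wells (log2 fold change -1.53, adjusted p = 2.16e-11). Gli1 had 40, 50 and 37 against 4, 10 and 13, and Hhip 39, 42 and 44 against 0 in each. These 3 were picked after their values were seen. Gene counts pool all exons and do not show whether a floxed exon is missing, so every direction given here rests on the labels, and the groups are written as WT-labelled and KO-labelled. Of 11 fibroblast markers, 9 were in the table, with a summed level of 44300 to 46700 CPM (counts scaled to library size) in WT-labelled wells and 37400 to 39100 in KO-labelled wells. Of the 8 tested, 5 had an adjusted p under 0.05 and at least 1.5-fold (62.5%, beside 17.7% of all genes). Among these 5, 4 were lower and 1 higher in KO-labelled wells. Thy1, a common fibroblast surface marker, was nearly absent, with at most 4 counts in WT-labelled wells and at most 19 in KO-labelled wells. Of 10 macrophage and leukocyte markers 6 were in the table, at 56.3 to 61.5 CPM in sum in WT-labelled wells and 54.6 to 56.1 in KO-labelled wells. Epithelial and acinar markers (5 of 11 in the table) summed to 20 to 22.4 CPM and 44.4 to 46.3 CPM in the same order. Of the 4 tested, 3 had an adjusted p under 0.05 and at least 1.5-fold (75%, beside 17.7% of all genes), all higher. Sox9 was lower, with 269, 281 and 273 counts in WT-labelled wells and 198, 251 and 214 in KO-labelled wells. Only Tcf4 and Bst2 of 7 plasmacytoid dendritic and B cell markers were in the table, at 300 to 337 against 158 to 160 CPM in sum, and Bst2 is itself an interferon target. The part of these marker differences in the results was not tested. The 7 T and NK cell markers and the 5 endothelial markers, like Ptprc and Adgre1, were not analysed here.

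Fold changes compare the KO-labelled wells with the WT-labelled ones and come from edgeR's quasi-likelihood test on the counts of all genes, with Benjamini-Hochberg adjustment over the 14289 tested. At an adjusted p under 0.05, 7 of the 9 genes differed, with 3 higher and 4 lower in KO-labelled wells, beside 58.7% of all genes tested (29.9% higher and 28.8% lower). With a change of at least 1.5-fold asked for as well, only Irf7 passed, beside 17.7% of all genes tested. The count is 2 without WT-labelled well 2, when Stat2 passes too. The median log2 fold change of the 9 genes and that of all genes were both 0.00, and the 7 genes below 0.05 are those whose groups did not overlap, as is true of 64.2% of all genes (32.9% higher and 31.3% lower). Upper-quartile scaling moved the upward share of all genes with an adjusted p under 0.05 from 51% to 61.2%. An exact permutation test of a single gene with 3 libraries against 3 cannot give a two-sided p under 0.1. As in any bulk sample, fewer expressing cells and less RNA per cell cannot be told apart.

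**Figure D1:**
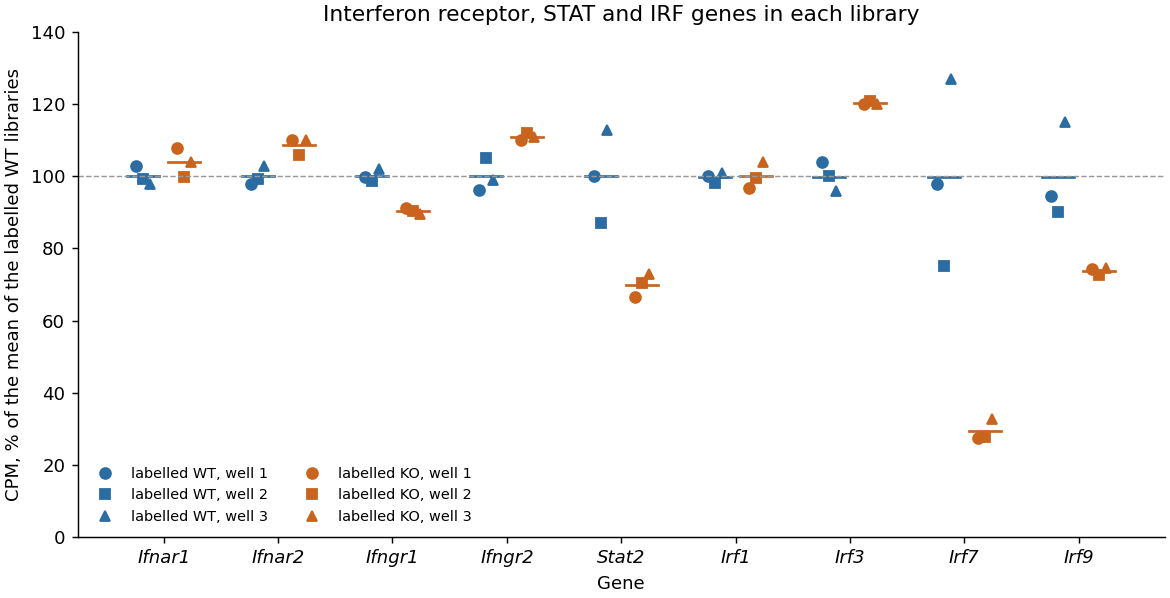
CPM of each of the 9 genes in each of the 6 libraries, as a percent of the mean of the 3 WT-labelled wells (vertical axis, from 0); symbols mark the wells, horizontal bars the group means, blue is WT-labelled and orange KO-labelled. The 3 KO-labelled wells lie between 27.5% and 32.7% for Irf7 and between 66.4% and 74.6% for Stat2 and Irf9, while the receptor genes stay between 89.6% and 112% in all libraries.

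None of the 4 receptor genes reached 1.5-fold, and their log2 fold changes lay between -0.15 and 0.15. Ifnar1, which with Ifnar2 forms the type I receptor (chromosome 16 from 91485238 to 91507441 on GRCm38, with genes as in GENCODE M21), had 77.5, 75.1 and 74.0 CPM in WT-labelled wells and 81.7, 75.3 and 78.2 in KO-labelled wells. These ranges overlap, and the fold change of 1.04 did not pass (adjusted p = 0.245), with a 95% interval from 1.99% lower to 9.87% higher. Ifnar2, the chain that binds interferon most tightly (chromosome 16 from 91372783 to 91405589), had 39.8, 40.3 and 41.6 CPM against 44.6, 43.1 and 44.6. All 3 KO-labelled wells were above the others, but the rise was only 1.09-fold (adjusted p = 0.0166) and lost its call under 4 of 14 alternative settings, DESeq2 among them (adjusted p = 0.0674). Gm21970 on the same strand shares 9.46% of the Ifnar2 exon bases.

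The chains of the interferon gamma receptor moved in opposite directions. Ifngr1, the ligand-binding chain (chromosome 10 from 19591949 to 19610229), had 5033, 5328 and 5225 counts in WT-labelled wells and 5198, 6078 and 4765 in KO-labelled wells, or 161 ± 2.34 and 146 ± 1.24 CPM (SD, n = 3 each). It fell by 9.58% in KO-labelled wells (adjusted p = 0.000798), with a 95% interval of -13.4% to -5.58%. Ifngr2, the signalling chain (chromosome 16 from 91547072 to 91565623), had 75.2, 82.1 and 77.6 CPM against 86.3, 88.0 and 87.1, and rose 1.11-fold (adjusted p = 0.00301). The groups do not overlap for either chain, and the coefficient of variation (CV) among replicate wells was between 0.849% and 4.43%.

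Stat2 and Irf9, the ISGF3 subunits among these genes, were both lower in KO-labelled wells. Stat2 (chromosome 10 from 128270559 to 128292849), whose promoter carries the ISRE core shown above, had 4645, 4323 and 5340 counts in WT-labelled wells and 3486, 4344 and 3562 in KO-labelled wells. Scaled to library size these are 148, 129 and 167 CPM against 98.4, 104 and 108, so that the lowest WT-labelled well still lies above the highest KO-labelled one. The log2 fold change was -0.52 (standard error, SE, of 0.07 and adjusted p = 4.61e-05). Irf9, the DNA-binding subunit (chromosome 14 from 55603571 to 55610030), had 43.7, 41.6 and 53.3 CPM in WT-labelled wells and 34.4, 33.5 and 34.4 in KO-labelled wells. Its log2 fold change was -0.44 (SE 0.07, adjusted p = 0.000249), or a fall of 26.1%, where that of Stat2 was 30.1%. Rnf31 on the same strand shares 2.28% of the Irf9 exon bases.

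Irf7 (chromosome 7 from 141262706 to 141266481) changed most of the 9 genes. This factor, which drives the interferon alpha genes, had 318, 261 and 421 counts in WT-labelled wells and 101, 120 and 112 in KO-labelled wells. These are 10.1, 7.79 and 13.2 CPM against 2.85, 2.88 and 3.39, with a wide gap between the groups. The log2 fold change was -1.77 (SE 0.17, adjusted p = 2.07e-06), so that Irf7 was 3.42-fold higher in WT-labelled wells. Over 14 alternative settings its log2 fold change stayed between -1.95 and -1.56, and the highest adjusted p was 2.35e-05. Phrf1 on the opposite strand overlaps 1.19% of its exon bases, and the strand setting of the counting is not given in the sources used here.

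Irf3, the constitutive relative of Irf7 (chromosome 7 from 44997648 to 45002848), went the other way. It had 47.6, 45.9 and 43.9 CPM in WT-labelled wells and 55.1, 55.5 and 54.8 in KO-labelled wells, a rise of 1.20-fold (log2 fold change 0.27, SE 0.04, adjusted p = 6.18e-05). Part of its exons, 2.56% of the bases, overlap Bcl2l12 on the opposite strand. Per kilobase of exon, the level of Irf3 was 5.09 ± 1.40 times that of Irf7 in WT-labelled wells (SD, n = 3), with a range of 3.65 to 6.46. In KO-labelled wells it was 17.7 to 21.2 times that of Irf7, and the groups do not overlap. These ratios depend on the length used. Divided by the longest transcript instead, Irf3 and Irf7 stood at 22.5 and 3.2 CPM per kilobase in WT-labelled wells. In KO-labelled wells they stood at 27.2 and 0.939.

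Irf1 (chromosome 11 from 53770014 to 53778374) did not pass the test. Its counts were 1867, 1949 and 1919 in WT-labelled wells and 2032, 2460 and 2027 in KO-labelled wells, or 59.6, 58.2 and 60.1 CPM against 57.4, 59.0 and 61.4. The groups overlap, the adjusted p was 0.989, and the 95% interval of the difference ran from -5.46% to 5.66%. A change as large as that of Stat2 or Irf9 lies outside that interval. Gm17334 on the opposite strand overlaps 3.4% of the Irf1 exon bases.

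**Figure D2:**
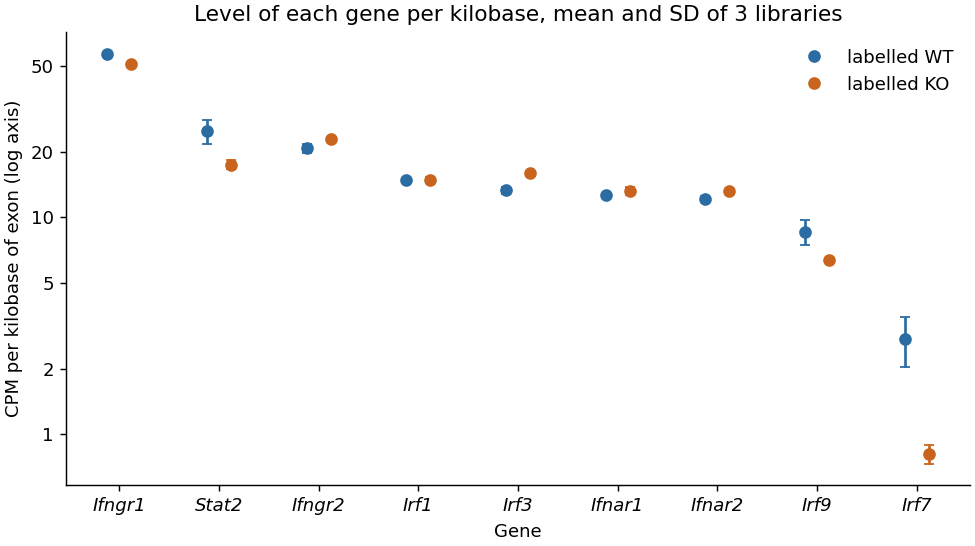
Level of each gene in CPM per kilobase of exon (logarithmic vertical axis), as mean and SD of the 3 WT-labelled wells (blue) and KO-labelled (orange); where no bar shows, the SD is smaller than the symbol. Levels fall from 56.6 for Ifngr1 to 2.75 for Irf7 in WT-labelled wells and from 51.2 to 0.806 in KO-labelled wells.

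Set side by side per kilobase of exon, Ifngr1 was the most abundant of the 9 transcripts and Irf7 the least. In the WT-labelled wells, Ifngr1 had 56.6 ± 0.823 CPM per kilobase, followed by Stat2 (25.0 ± 3.22) and Ifngr2 (20.8 ± 0.922), whose ranges overlap. Irf1 (14.9 ± 0.249) was next, then Irf3 (13.3 ± 0.536), Ifnar1 (12.7 ± 0.300) and Ifnar2 (12.2 ± 0.289). Irf3 overlaps with Ifnar1, and Ifnar1 with Ifnar2. Irf9 (8.57 ± 1.16) and Irf7 (2.75 ± 0.716) closed the order. In the KO-labelled wells, Ifngr2 (23.1 ± 0.228) stood above Stat2 (17.5 ± 0.804), and Irf3 (16.0 ± 0.103) above Irf1 (14.9 ± 0.508). The chains of the type I receptor were at 13.2 CPM per kilobase each. Dividing by the longest transcript in place of all exons kept Ifngr1 first and Irf9 and Irf7 last in both groups and placed Irf1 and Irf3 above Ifngr2. In KO-labelled wells it also put Stat2 and Ifngr2 level at 23.5 CPM per kilobase and Irf1 (27.7) beside Irf3 (27.2) with overlapping ranges, so that neither order just given held.

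The spread among wells differed between the genes. In the WT-labelled wells the coefficient of variation was 26.1% for Irf7, 13.6% for Irf9 and 12.9% for Stat2, against 1.45% to 4.43% for the receptor chains, Irf1 and Irf3. The median over the 13155 genes that had 10 counts or more in all libraries was 4.32%. In the KO-labelled wells, Irf9 and Stat2 varied by 1.54% and 4.6% and Irf7 by 10.0%, beside a median of 4.11%. Irf7 had only 101, 120 and 112 counts in those wells, and the medians are not matched for depth.

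The variable genes shared an order of wells. Irf7, Stat2 and Irf9 were each highest in WT-labelled well 3, at 127%, 113% and 115% of the mean of the group. They were lowest in WT-labelled well 2, at 75.1%, 87.1% and 90.0%. Ifngr1 and Irf1 had the same order of WT-labelled wells, but stayed between 98.1% and 102% of that mean. Among 19 type I interferon target genes that had 10 counts or more in all libraries, 18 were highest of the WT-labelled wells in well 3, beside 33.3% of all genes. Without that well, the log2 fold change was -1.56 for Irf7 (adjusted p = 4.10e-07), -0.42 for Stat2 (adjusted p = 2.26e-05) and -0.32 for Irf9 (adjusted p = 5.85e-05), so that the 3 genes fell without it as well. Well 3 held 32297675 counts, and CPM are already scaled to library size. The cause of this order of wells was not tested.

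**Figure D3:**
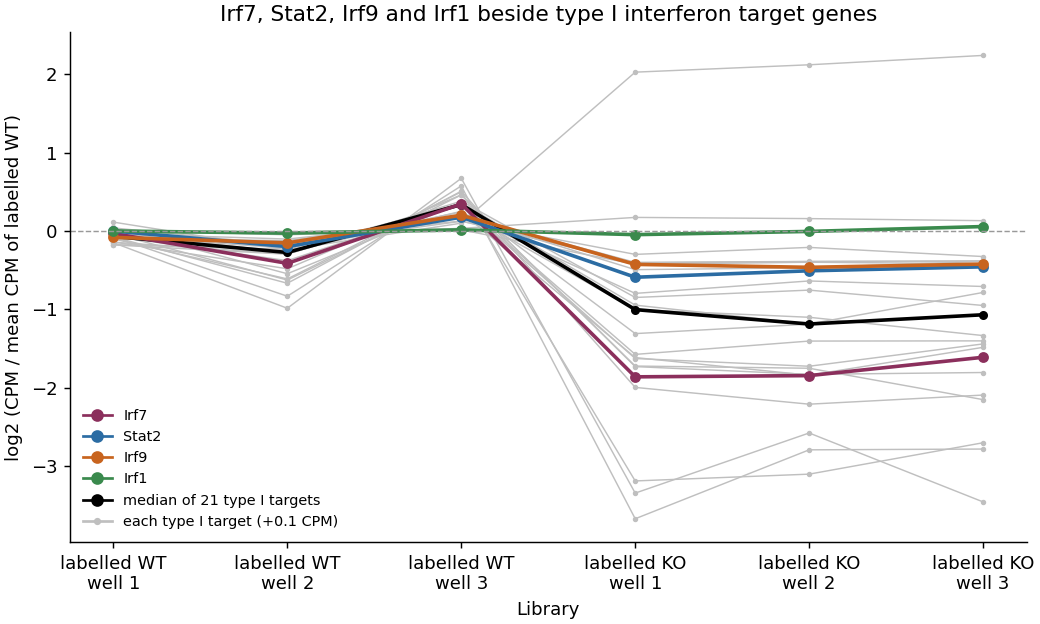
log2 of CPM over the mean CPM of the WT-labelled wells, for Irf7, Stat2, Irf9 and Irf1 (coloured), each of 21 type I interferon target genes (grey, with 0.1 CPM added) and the median of these targets (black), in the 6 libraries; lines only join the points of a gene, since wells have no order. Irf7 and most targets peak in WT-labelled well 3 and lie below 0 in all KO-labelled wells, Irf1 stays near 0, and the grey line far above 0 in KO-labelled wells is Ifih1.

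The genes nearest to Irf7 in pattern were sought among 13154 others with 10 counts or more in all libraries, by the root mean square difference of log2 CPM over the 6 libraries after centring each gene on its own mean. The nearest were Rtp4 (0.121), Ifit3b (0.121), Ifit3 (0.123), Slc17a4 (0.144) and Bst2 (0.170). Rtp4, Ifit3b, Ifit3 and Bst2 are interferon-stimulated genes and stood in the list of type I targets, while Slc17a4, a solute carrier, was in none of the lists. Rtp4 had 257, 216 and 399 counts in WT-labelled wells and 94, 103 and 83 in KO-labelled wells, with the same highest and lowest WT-labelled well as Irf7. Slc17a4 had 66, 59 and 79 against 18, 27 and 26. Ifit3 and Ifit3b are near-identical copies whose reads the counting could have split.

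Of 64 listed ligands, receptor chains, kinases, STATs, IRFs, cofactors and inhibitors, 40 were tested, and 24 differed at an adjusted p under 0.05, with 13 higher and 11 lower in KO-labelled wells. That is 60.0% of the 40, beside 58.7% of all genes. With the 1.5-fold limit, 3 passed (7.5%, beside 17.7% of all genes), Irf5 and Ptpn6 higher and Usp18 lower. The median log2 fold change of the 40 was 0.00, as for all genes. The 21 listed interferon genes were not analysed here.

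Among the kinases that carry the signal from the receptors, Jak2, which serves the gamma receptor, rose 1.39-fold in KO-labelled wells, from 54.5 ± 1.71 to 75.7 ± 2.59 CPM (SD, n = 3 each, adjusted p = 3.70e-07). Jak1 and Tyk2 did not pass, with fold changes of 1.02 and 1.07 and 95% intervals, unadjusted, of -3.30% to 7.01% and 0.545% to 13.3%. Stat3, Stat5a, Stat5b and Stat6 did not pass either. Stat3, the most abundant of these by CPM, had a fold change of 0.994 (95% interval -4.97% to 3.91%), and for Stat5a, Stat5b and Stat6 the fold changes were 1.03, 0.985 and 1.03.

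**Figure D4:**
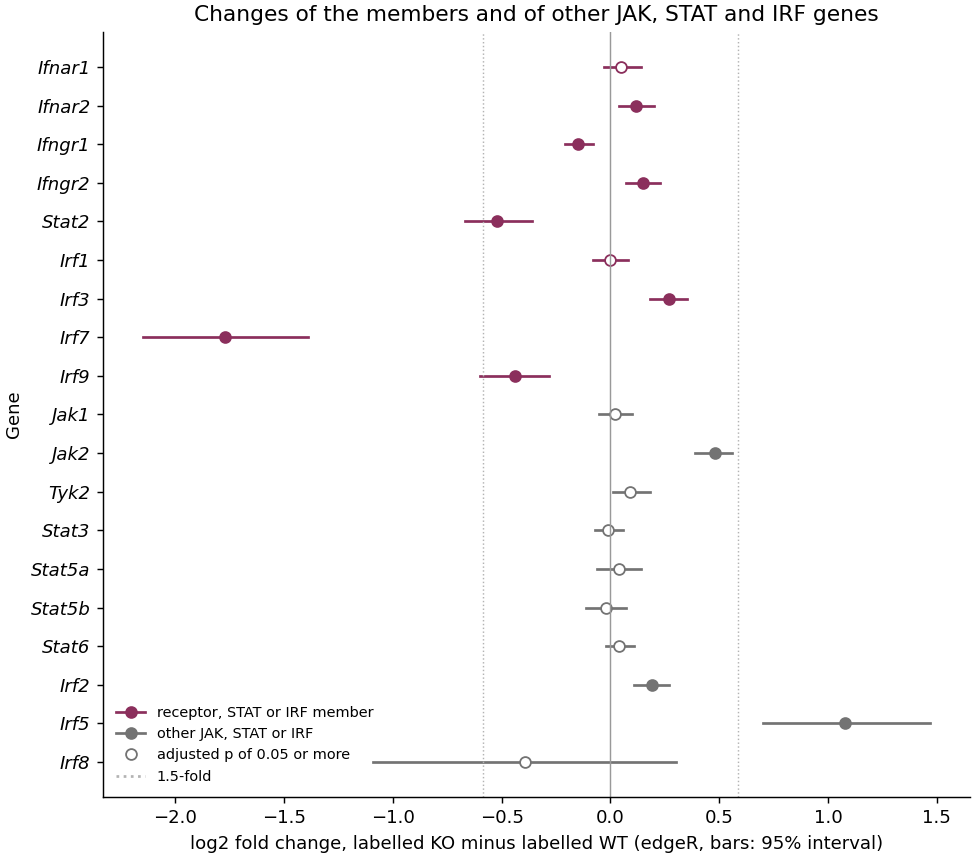
log2 fold change of the KO-labelled wells against the WT-labelled ones (horizontal axis) with its 95% interval, for the 9 genes (purple) and for other Janus kinase, STAT and IRF genes (grey); open circles have an adjusted p of 0.05 or more, and dotted lines mark 1.5-fold. Irf7 at -1.77 and Irf5 at 1.08 lie past the dotted lines, and Stat2 and Irf9 lie between them and 0 on the lower side.

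Irf5, an IRF better known from macrophages and dendritic cells, had 46, 34 and 44 counts in WT-labelled wells and 109, 116 and 75 in KO-labelled wells, a rise of 2.12-fold (adjusted p = 0.000174) at 1.29 and 2.71 CPM. Irf2, which can compete with IRF1 for its sites, rose 1.14-fold (adjusted p = 0.000874). Irf8, with 9 to 16 counts per library, did not pass (log2 fold change -0.39, SE 0.32, adjusted p = 0.327). The sum of the leukocyte markers given above is made mostly of Lyz2 and Cd14. Of the scarcer ones, Cd68 had 37, 38 and 38 counts in WT-labelled wells and 47, 72 and 53 in KO-labelled wells, without overlap in CPM (adjusted p = 0.0522), and Aif1 had 8, 5 and 13 against 15, 17 and 11, with overlap. Fcer1g had 36, 45 and 31 counts against 31, 38 and 41. Csf1r had 29, 33 and 35 against 37, 49 and 33. The counts of the groups overlap for Fcer1g and Csf1r. Of the 6 leukocyte markers tested, 2 had an adjusted p under 0.05 (33.3%, beside 58.7% of all genes), both lower in KO-labelled wells. The part of these markers in the counts of Irf5 was not tested.

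Usp18, the interferon-induced protease that blocks IFNAR2 from signalling, had 229, 198 and 331 counts in WT-labelled wells and 26, 46 and 35 in KO-labelled wells. It was 8.05-fold lower in KO-labelled wells (log2 fold change -3.01, SE 0.23, adjusted p = 2.25e-07), a larger fold change than that of Irf7, and again highest in WT-labelled well 3. Ptpn6, a phosphatase of blood cells, had 6, 6 and 4 counts against 28, 13 and 22, a log2 fold change of 1.78 (SE 0.43, adjusted p = 0.00345), and was not tested where at least 10 counts were asked for in every library. Of the 13 inhibitors listed, 6 were higher and 5 lower at an adjusted p under 0.05 (84.6%, beside 58.7% of all genes). At the same threshold, of 11 kinases and adaptors that act upstream of IRF3 and IRF7, 2 were higher and 4 lower (54.5%), with log2 fold changes between -0.23 and 0.33.

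Known target genes of the factors were counted from 2 lists. Of 26 type I interferon targets 21 were tested, and 15 passed both limits, 14 lower and 1 higher in KO-labelled wells, with a median log2 fold change of -1.18. Of 25 targets of interferon gamma and IRF1, 20 were tested and 8 passed, 6 lower and 2 higher, with a median of -0.31. Among all genes tested 6.10% passed in the lower direction and 11.6% in the higher. Together 23 of the 41 tested targets passed, also 23 without WT-labelled well 3.

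The 4 listed targets that changed most were Iigp1, Ifi44, Oas2 and Oasl2. Oasl2 had 408, 305 and 632 counts in WT-labelled wells and 51, 64 and 68 in KO-labelled wells, a log2 fold change of -3.06 (SE 0.28, adjusted p = 9.52e-07). All 4 have relatives in the genome, and reads may have been shared among these. Of the 21 type I targets tested, Ifih1 and Ifi27 were the 2 with an adjusted p under 0.05 and a higher level in KO-labelled wells. Ifih1, the sensor MDA5, had 112, 93 and 113 counts in WT-labelled wells and 487, 612 and 527 in KO-labelled wells, a rise of 4.49-fold (adjusted p = 1.82e-09), and Ifi27 rose 1.11-fold (adjusted p = 0.0012). Cxcl10, a chemokine on the list of interferon gamma and IRF1 targets, had 57, 30 and 26 counts against 9, 13 and 12 (log2 fold change -1.91, SE 0.36, adjusted p = 0.000563). Ifih1, Ifi27 and Cxcl10 were singled out after their values were seen.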

How the data were processed

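RNA sequencing of 3 libraries labelled WT and 3 labelled Gli2-/-;Gli3-/- was analysed. The authors deposited raw counts per gene, without normalization, and log2 CPM values from limma's voom, both for the same 14831 genes, and how these were picked is not given in the sources used here. The submitters' processing notes name STAR 2.7.2b, featureCounts, limma and build GRCm38.p6, and the libraries were made from polyadenylated RNA. The strand setting of the counting is not given in the sources used here. Of the gene identifiers, 14515 match GENCODE M21 with their version and 14822 without it.

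Groups came from the genotype labels. Replicate numbers only name wells and follow accession order. No pair of libraries of a group agreed within sampling noise (chi-square per degree of freedom 2.5 to 7.74), so that all were kept. The test was edgeR's quasi-likelihood F test (version 4.0.16 in R 4.3.3) after filterByExpr and TMM scaling, with Benjamini-Hochberg adjustment over 14289 genes. Calls needed an adjusted p under 0.05 together with 1.5-fold or more. Standard errors come from the fold change and its F statistic, and 95% intervals from them and the degrees of freedom of the test. On counts simulated from these libraries over 14106 genes, the test recovered 95.5% of the genes changed by 1.5-fold, with 11 false calls in all. Recovery asked for an adjusted p under 0.05 and the right direction, without the fold limit. Only genes above a set mean level were changed, and all genes were given the same biological CV of 3.74%. The fitted value was 12.3% for Irf7, 6.23% for Stat2 and 6.05% for Irf9. The simulated figures therefore do not cover genes as variable as these. Levels per kilobase divide CPM by the length of all annotated exons.

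The 9 genes, the lists of pathway genes, targets and markers, and the tests were chosen with earlier results of these data known. Genes named are the 9, Gli2 and Gli3, all listed Janus kinases, STATs and IRFs that were tested, called pathway genes, the 4 most changed listed targets (10 counts or more in each library of the group where they were higher), and the 5 genes nearest in pattern to each called gene, and 1 gene under this rule is not reported here. As alternatives, libraries were scaled by RLE, by upper quartiles or by totals, filters and fold limits were changed, DESeq2 1.42.0 and limma 3.58.1 (voom, and the deposited log2 values) replaced edgeR, and each library was left out. A planned comparison of the IRF protein sequences was not analysed here.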

Additional observations from a re-analysis of the deposited data

How the results depend on the processing

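Directions of Ifnar1, Ifnar2, Ifngr1, Ifngr2, Stat2, Irf3, Irf7 and Irf9 were the same under all 14 alternative fits. Irf1 never passed the threshold and ranged from -0.02 to 0.06 on the log2 scale. Stat2, Irf9, Irf7, Irf3, Ifngr1 and Ifngr2 kept an adjusted p under 0.05 in all 14. Ifnar2 lost its call in 4, and Ifnar1 gained one with upper-quartile factors (log2 fold change 0.11, adjusted p = 0.0258). That scaling made 61.2% of the calls at an adjusted p under 0.05 over all genes upward, where TMM gave 51%. With each library left out in turn, 1 to 2 of the 9 genes passed both limits, and Stat2 was the second without WT-labelled well 2. Without the fold limit, 7 of the 9 genes, 24 of the pathway genes and 35 of the target genes passed. No paired analysis was possible because the labels give no replicate number that the groups share. Depth limits the genes with few counts, such as Irf8 and Ptpn6. A floor of 3 counts per library is 0.072 to 0.0957 CPM.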
